A study of Mus musculus with 2 samples.

Results

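Wide accessible domains were examined in the mouse spleen library made with the 50 µL reaction system. They were selected on width alone: every autosomal peak of that library's deposited list of 1500 bp or more, measured as end minus start, was a member. The rule found 644 members among 87358 autosomal peaks (0.737%), and the 2 lists of the series held 114725 peaks in all. Because width chose the members, their widths, heights and significance are given as a description, with no test. The study profiled open chromatin in single nuclei of formalin-fixed, paraffin-embedded (FFPE) tissue with scFFPE-ATAC. In it a Tn5 transposase inserts a barcoded adaptor into accessible DNA. Further barcodes are then ligated on, the last of them with a T7 promoter, and in vitro transcription amplifies the tagged DNA. Both libraries came from spleen, a blood-filtering organ rich in B cells, T cells and macrophages. By their titles, one was tagmented in the 50 µL reaction system and the other was made without gradient centrifugation, the density step that clears debris from nuclei. The protocol entered for both libraries gives the standard tagmentation volume, so the 50 µL volume rests on the title and the study. By the study's methods the mice were 8-week-old C57BL/6J animals of both sexes; the labels do not give the animal, age or sex behind each library, nor whether the 50 µL nuclei passed the gradient. Each condition had 1 library, so preparation and library cannot be told apart, no difference between them has a replicate check, and the numbers of reads and cells behind the lists are unknown.

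Tn5 inserts where nucleosomes are absent or loosely held, and a peak caller merges neighbouring enriched positions into 1 interval. Promoters of broadly expressed genes usually lie in CpG islands, stretches rich in unmethylated CpG dinucleotides where nucleosomes are depleted on both sides of the transcription start site (TSS). Enhancers of cell identity genes are mostly poorer in CpG and more compact. An interval of 1500 bp or more can hold the space of several nucleosomes.

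Members were 1500 to 2823 bp wide, with a median of 1638.5 bp and quartiles of 1561 and 1773 bp. They covered 1.09 Mb, or 2.95% of all bases in autosomal peaks of the 50 µL library. Of the other autosomal peaks, 65654 were under 500 bp, 17266 were 500 to under 1000 bp and 3794 were 1000 to under 1500 bp. The widest autosomal peak without gradient centrifugation spanned 1439 bp and the median 298 bp, so that list held no domain of this size. The tissue check was made on the whole 50 µL list: a promoter peak lay at 24 of 24 B cell, 24 of 26 T cell and 18 of 26 myeloid marker genes, against 4 of 26 markers of other tissues. It also lay at 5 of 11 NK cell, 9 of 13 erythroid, 7 of 17 endothelial and stromal and 1 of 7 megakaryocyte marker genes.

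The DNA under the summits of some members is given as examples. In the following 300 bp windows about the summit in the mm10 genome (GRCm38 reference, forward strand, 5′ to 3′), capitals mark CpG dinucleotides. They were chosen to show the widest member, a promoter shared by a pair of genes, a translation gene, a histone gene, the member with the highest −log10 q and the widest member far from any TSS.
Lnpep, chr17:17625364-17625663: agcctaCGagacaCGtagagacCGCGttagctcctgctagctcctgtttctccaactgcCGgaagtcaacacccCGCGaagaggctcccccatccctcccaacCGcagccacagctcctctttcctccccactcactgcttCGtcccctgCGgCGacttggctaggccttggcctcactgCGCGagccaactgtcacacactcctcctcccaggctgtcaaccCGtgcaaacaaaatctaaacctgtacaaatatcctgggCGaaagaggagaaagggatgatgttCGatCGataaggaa
Hspd1 and Hspe1, chr1:55087868-55088167: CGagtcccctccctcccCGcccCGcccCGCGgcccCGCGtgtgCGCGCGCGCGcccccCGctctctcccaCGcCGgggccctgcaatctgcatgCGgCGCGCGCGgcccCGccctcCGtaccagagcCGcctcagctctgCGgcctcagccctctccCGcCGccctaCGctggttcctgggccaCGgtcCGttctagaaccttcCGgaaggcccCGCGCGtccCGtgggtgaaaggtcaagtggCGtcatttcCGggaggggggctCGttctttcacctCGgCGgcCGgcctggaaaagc
Eef1a1, chr9:78481608-78481907: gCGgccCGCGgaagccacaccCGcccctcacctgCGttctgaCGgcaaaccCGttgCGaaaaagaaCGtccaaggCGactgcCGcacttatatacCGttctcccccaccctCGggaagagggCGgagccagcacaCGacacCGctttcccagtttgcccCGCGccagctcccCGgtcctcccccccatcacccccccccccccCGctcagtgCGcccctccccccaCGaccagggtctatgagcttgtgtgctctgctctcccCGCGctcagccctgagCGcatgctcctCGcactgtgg
Hist1h4j, chr13:21734977-21735276: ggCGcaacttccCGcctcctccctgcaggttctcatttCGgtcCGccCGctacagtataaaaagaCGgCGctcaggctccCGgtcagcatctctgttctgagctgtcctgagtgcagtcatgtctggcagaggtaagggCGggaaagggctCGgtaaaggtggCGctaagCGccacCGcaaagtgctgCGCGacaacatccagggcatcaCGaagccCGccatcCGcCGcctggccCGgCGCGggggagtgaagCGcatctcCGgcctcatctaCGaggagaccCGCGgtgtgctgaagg
Pdk2, chr11:95041414-95041713: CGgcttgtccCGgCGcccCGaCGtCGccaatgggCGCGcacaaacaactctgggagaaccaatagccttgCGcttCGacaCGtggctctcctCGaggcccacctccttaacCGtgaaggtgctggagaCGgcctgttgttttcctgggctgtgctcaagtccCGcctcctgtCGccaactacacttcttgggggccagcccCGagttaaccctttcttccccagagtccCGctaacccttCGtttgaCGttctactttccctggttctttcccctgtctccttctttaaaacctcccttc
no TSS, chr12:69447408-69447707: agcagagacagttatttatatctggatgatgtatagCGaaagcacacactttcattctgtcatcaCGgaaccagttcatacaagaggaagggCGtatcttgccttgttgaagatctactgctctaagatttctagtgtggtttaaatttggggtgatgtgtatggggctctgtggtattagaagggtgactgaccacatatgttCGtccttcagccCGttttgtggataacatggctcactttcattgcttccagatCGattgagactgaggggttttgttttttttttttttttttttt

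These 300 bp windows held 17 CpGs at Lnpep, 40 at Hspd1 and Hspe1, 26 at Eef1a1, 27 at Hist1h4j and 20 at Pdk2, but 6 in the member on chromosome 12 without a TSS. Over all members the median was 20 CpGs in the 300 bp around the summit (quartiles 12 and 28), against 3 (quartiles 2 and 6) over all autosomal peaks. Members within 1 kb of a TSS had a median of 21 and the 61 members farther away a median of 5. In these windows, members within 1 kb of a TSS had a median ratio of observed to expected CpG of 0.799 and a median GC content of 60.3%. Peaks of 1000 to under 1500 bp within 1 kb of a TSS were close, with 0.775 and 60.0%. The chromosome 12 window had a GC content of 40.3%, and that of Hspd1 and Hspe1 74.3%.

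Most members were promoters. A TSS of GENCODE vM21 lay inside 574 of 644 members (89.1%, exact 95% interval 86.5 to 91.4%), against 13.5% of all autosomal 50 µL peaks. Within 1 kb of a TSS lay 583 members (90.5%, interval 88.0 to 92.7%), against 25.9% of all autosomal peaks. A longer interval reaches more TSSs by its length, so the summit, a single base, was also used: it lay within 1 kb of a TSS in 575 members (89.3%, interval 86.6 to 91.6%), against 24.1% of all autosomal peaks. The share of summits near a TSS was 16.4% in peaks under 500 bp, 39.0% at 500 to under 1000 bp, 77.5% at 1000 to under 1500 bp and 89.3% in members. Intervals cover counting error only, within this 1 library.

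**Figure D1:**
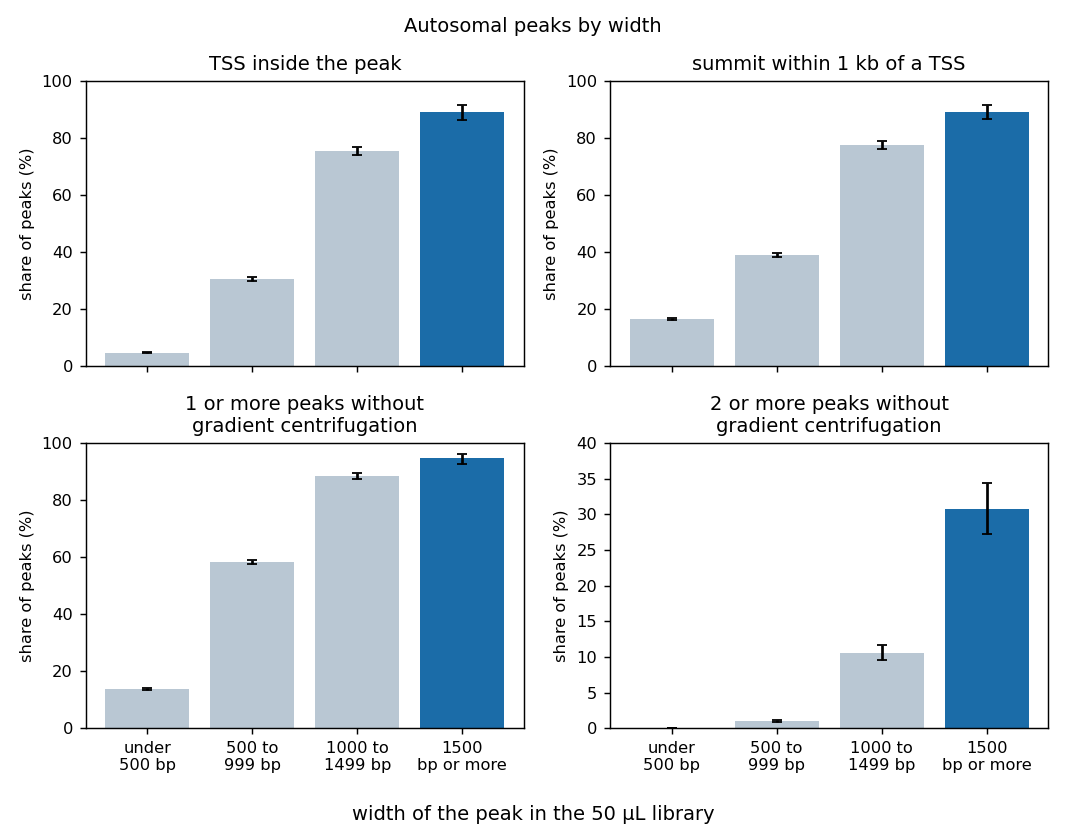
Share of autosomal 50 µL peaks (vertical axes, percent) in 4 width classes (horizontal axes, bp) that had a TSS inside, had the summit within 1 kb of a TSS, or were overlapped by 1 or more and by 2 or more peaks without gradient centrifugation; bars are shares, error bars exact 95% intervals, and the lower right axis ends at 40%. Every share was lowest under 500 bp and highest in the 644 members, where the TSS share reached 89.1%.

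Members stood higher than most autosomal peaks and close to the next narrower class. Their fold enrichment over background, the peak caller's height at the summit, ran from 2.57 to 7.91 with a median of 4.40. The median fold enrichment was 3.28 over all autosomal peaks (quartiles 2.73 and 4.11), 3.06 in those under 500 bp, 4.08 at 500 to under 1000 bp and 4.64 at 1000 to under 1500 bp. The median −log10 q was 45.6 in members and 13.1 over all autosomal peaks, with 10.6 under 500 bp and 44.1 at 1000 to under 1500 bp. Of the 1000 autosomal peaks with the highest −log10 q, 22 were members (2.2%), where members were 0.737% of all autosomal peaks.

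Just inside the threshold stood 2 peaks of 1500 bp without a TSS, one on chromosome 11 within Myo1d and one nearest to H2-M10.1, followed by promoters of Bcas3, of Ccdc173 with Phospho2 and of 4932438A13Rik, 1 bp wider. Just outside it stood the promoters of Mocs2, Rab8a, Nisch, Zfp207 and Mtfr1, 1 or 2 bp narrower than it. Their fold enrichments were 3.28 to 6.41 inside and 3.62 to 5.60 outside, and each of the 10 held 1 or 2 peaks without gradient centrifugation. The threshold therefore cuts through a continuous range of widths. Of the 248 members of 1500 to 1599 bp, 89.1% held a TSS, against 84.0% of the 374 peaks of 1400 to under 1500 bp. Peaks without gradient centrifugation overlapped 94.35% and 94.39% of these. The share overlapped by 2 or more differed more, with 26.2% inside and 16.3% outside.

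The widest members were promoters of genes with unrelated roles. Lnpep, which encodes a membrane aminopeptidase regulated by insulin, had the widest (chr17:17623581-17626403, 2823 bp, fold enrichment 3.24). Crlf2, the receptor chain for the cytokine TSLP, had a 2777 bp peak (chr5:109556839-109559615, fold enrichment 3.52). Mindy1, a deubiquitinase gene, and Prune1 shared one of 2674 bp (fold enrichment 4.00). Ppp2r3d, a regulatory subunit gene of protein phosphatase 2A, followed with 2521 bp, Sertad3 with 2514 bp and Zbtb20, a zinc finger repressor, with 2496 bp. The next were shared by Mboat7 and Tsen34 (a subunit of the enzyme that splices tRNAs), at 2482 bp, and by Fbxo36 and Trip12 (a ubiquitin ligase), at 2344 bp. A 2326 bp peak on chromosome 12 had no TSS within 19036 bp. Fold enrichments of these 9 were 3.24 to 4.00, all below the members' median.

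The members with the highest −log10 q were other genes. Pdk2, a kinase that restrains pyruvate dehydrogenase, led with a −log10 q of 95.7 and a fold enrichment of 7.43 over 1880 bp (chr11:95040686-95042565). Brip1, a DNA repair helicase, followed with 91.3, Thada with 84.9, Anxa5 (annexin A5) together with 1810062G17Rik with 82.8, Chp1 with Exd1 with 82.8, Pqlc3 with 80.6, Mrps14 with 79.9, Ddx10 with 78.6 and Caprin2 with 78.4. The tenth, with 76.4, lay 5304 bp from the nearest TSS, that of Zfp869. All but that one were promoters, and none was among the 9 widest.

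Inside the members lay TSSs of 819 genes, of which 691 were protein-coding. A protein-coding TSS lay inside 551 members: 420 held 1 such gene, 120 held 2 and 11 held 3. Another 23 members held TSSs of noncoding genes only. The noncoding genes included 32 antisense, 28 lincRNA, 10 snRNA, 9 miRNA and 6 snoRNA genes, the last including U3 RNA (Rnu3a) beside Gtf3c6 in a 1969 bp member. The 691 protein-coding genes were 3.32% of the 20807 on autosomes, which is the share to read each gene group against. Of the 20807, 10362 had a TSS in any 50 µL peak (49.8%), and the 691 were 6.67% of these (interval 6.20 to 7.17%). These counts rest on annotation and show open chromatin at a TSS, not transcription.

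Genes of protein folding, gene expression and mitochondria were among those inside. These families were defined by gene symbol after the genes inside members had been seen, so the counts are descriptions. Heat shock protein genes of the HSP70, HSP90, HSP60, HSP10, HSP105 and small HSP series had 8 of 27 members of the family inside wide peaks (29.6%, interval 13.8 to 50.2%). They were 38.1% of the 21 family genes with a TSS in any 50 µL peak (interval 18.1 to 61.6%). Those inside were Hsp90ab1 and Hsp90b1 (the HSP90 of the cytosol and of the endoplasmic reticulum), Hspd1 and Hspe1 (mitochondrial HSP60 and its partner HSP10), Hsph1, Hspa2, Hspa13 and Hspb11, whose product acts in cilia. The Hsph1 domain was 2084 bp wide (fold enrichment 4.08), that of Hsp90ab1 1761 bp (3.29), that of Hspd1 and Hspe1 1639 bp (3.56) and that of Hsp90b1 1595 bp (3.39). Among DNAJ co-chaperones, 5 of 45 genes were inside, with Dnajb1, the main HSP40, in a 2032 bp domain shared with Tecr. Stip1, which hands client proteins from HSP70 to HSP90, lay in a 1911 bp domain.

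Of mitochondrial ribosomal protein genes, 10 of 78 lay inside (12.8%, interval 6.32 to 22.3%), Mrps14 among them, whereas 3 of 95 cytosolic ribosomal protein genes did (3.16%, interval 0.656 to 8.95%): Rpl34, Rps26 and Rps27a. RNA polymerase subunit genes had 4 of 28 inside, with Polr2a, the catalytic subunit of RNA polymerase II, in a domain of 1947 bp and Polr2h, Polr2i and Polr3c in domains of 1552 to 1653 bp. The splicing genes Snrpb, Sf3b3, Srsf2, Hnrnpa1, Hnrnpc and Hnrnpul2 were 6 of 51, and the helicases Ddx10, Ddx19a, Ddx20, Ddx21, Ddx39b and Dhx15 also 6 of 51. Most genes of these families had a TSS in some 50 µL peak, and of those with one 13.0% of the mitochondrial ribosomal (10 of 77), 3.70% of the cytosolic ribosomal (3 of 81), 14.3% of the RNA polymerase (4 of 28), 13.0% of the splicing (6 of 46), 13.3% of the helicase (6 of 45) and 13.9% of the DNAJ genes (5 of 36) lay inside members, against 6.67% of all such protein-coding genes. Proteasome subunit genes had 0 of 49 inside (upper bound 7.25%), although 43 of the 49 had a TSS in some 50 µL peak.

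**Figure D2:**
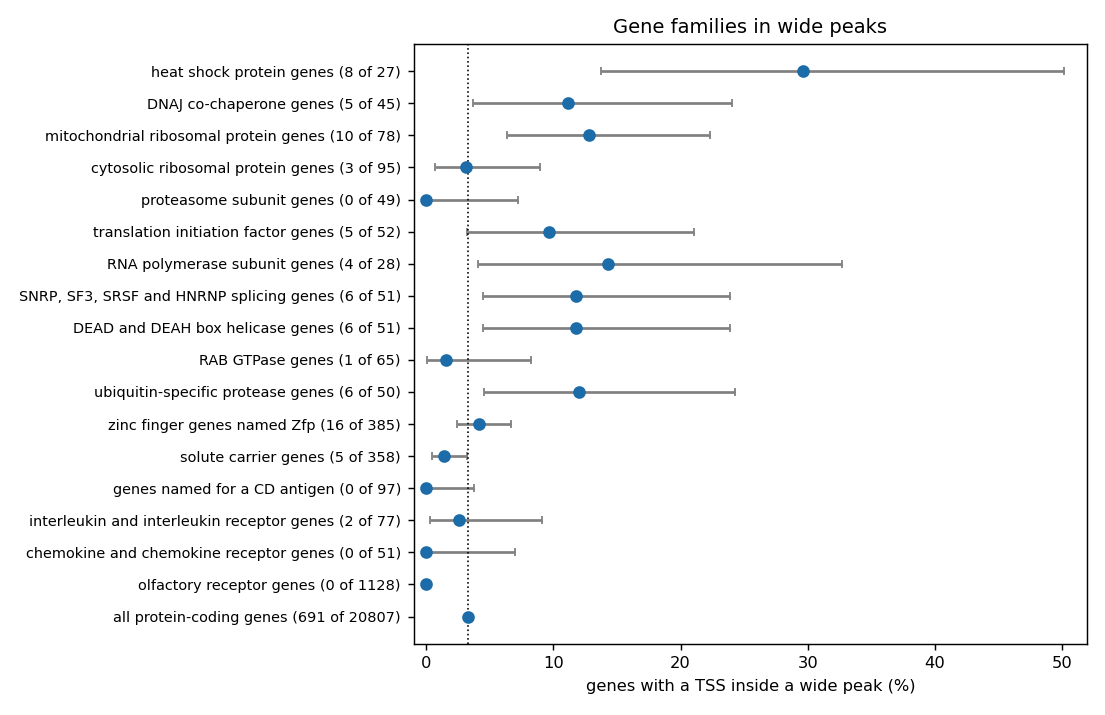
Share of the autosomal genes of each family (rows, with counts) that had a TSS inside a wide peak (horizontal axis, percent); points are shares, bars exact 95% intervals, and the dotted line is the 3.32% of all protein-coding genes. Heat shock protein genes stood highest at 29.6%, and genes named for a CD antigen, chemokine genes, proteasome genes and olfactory receptor genes at 0%. A TSS lay in some peak of any width for 51 of 97 CD antigen and 43 of 49 proteasome genes. The same held for only 11 of 51 chemokine and 4 of 1128 olfactory receptor genes, so their 0% rests on few open promoters. Families were defined after the genes inside had been seen, and Hspd1 and Hspe1 share a peak but count separately.

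Promoters of spleen cell markers held no wide peak, although most of those of B and T cells were open. None of 24 B cell, 26 T cell, 11 NK cell, 26 myeloid, 13 erythroid, 7 megakaryocyte or 17 endothelial and stromal marker genes had a TSS inside a member. The background was 3.32% of all protein-coding genes and 6.67% of those with a TSS in some 50 µL peak. Lists this short set only upper bounds, of 14.25% for B cells and 13.2% for T cells and myeloid cells. A promoter peak is one within 1 kb of a TSS, a looser measure than a TSS inside a peak. The B cell markers all had promoter peaks, and 2 of the 24 reached 1000 bp. Genes named for a CD antigen gave 0 of 97 (upper bound 3.73%), with a TSS in some 50 µL peak for 51 of them (0 of 51, upper bound 6.98%, against 6.67%). Chemokines with their receptors gave 0 of 51, but only 11 of these had a TSS in some 50 µL peak (0 of 11, upper bound 28.5%).

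A few immune regulators did appear, the listed ones at shares near the 3.32% of all protein-coding genes. Of 43 lymphoid and myeloid transcription factors, 2 had a TSS inside (4.65%, interval 0.568 to 15.8%). They were Stat3 (1626 bp, fold enrichment 3.73), which relays cytokine signals, and Rel (1512 bp, 2.83), the NF-κB subunit of lymphocytes. All 43 had a promoter peak and 12 of them one of at least 1000 bp. Of all protein-coding genes with a TSS in some 50 µL peak, 6.67% lay inside members. Egr2, an early response factor of activated lymphocytes (1579 bp, 4.39), was the 1 of 30 immediate early genes inside (3.33%, interval 0.0844 to 17.2%). Outside the lists, and chosen after their values were seen, Myd88, the adaptor of Toll-like receptors, shared a 2216 bp domain with Acaa1a (6.01), Stat6 had one of 1655 bp (4.18), and the cytokine receptor chains Il10rb and Il3ra had 2109 and 1612 bp. Il10rb and Il3ra were 2 of 77 interleukin and interleukin receptor genes (2.60%, interval 0.316 to 9.07%). Of the 28 such genes with a TSS in some 50 µL peak they were 7.14% (interval 0.877 to 23.5%).

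Chromatin regulators held 5 of 42 (11.9%, interval 3.98 to 25.6%), and 41 of the 42 had a promoter peak. That interval holds the 6.67% of all protein-coding genes with a TSS in some 50 µL peak. The 5 were Eed (1790 bp) and Ezh2 (1524 bp), both core subunits of Polycomb repressive complex 2, Hdac1 (1531 bp), a histone deacetylase, Hmgb1 (1754 bp, shared with Uspl1) and Kdm2a (1730 bp), a demethylase that binds CpG islands. Of 28 housekeeping genes, 26 had a promoter peak and 3 were inside (10.7%, interval 2.27 to 28.2%). These 3 were Hnrnpa1, which shared 1860 bp with Cbx5 (heterochromatin protein 1 alpha), Eef1a1, the translation elongation factor, with 1852 bp, and Ppia, cyclophilin A, with 1660 bp. Replication-dependent histone genes gave 1 of 56, Hist1h4j with 1930 bp, and 36 of the 56 had a promoter peak. Developmental regulators gave 0 of 20 (upper bound 16.8%) and markers of other tissues 0 of 26 (upper bound 13.2%). Only 5 of those 20 and 4 of those 26 had a promoter peak.

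Many members served a pair of genes that start back to back. Protein-coding TSSs on both strands lay in 122 of the 551 members with such a TSS (22.1%, interval 18.7 to 25.8%), against 14.7% of the 2749 peaks of 1000 to under 1500 bp (interval 13.4 to 16.0%) and 8.38% of the 4904 peaks of 500 to under 1000 bp (interval 7.62 to 9.19%) with a protein-coding TSS. A wider interval has more room for a second gene, and that part was not tested. In 99 of the 122 the closest opposite TSSs were head to head, with a median of 88 bp between them (quartiles 51 and 209.5 bp). Hspd1 and Hspe1 stood 71 bp apart, Hmgb1 and Uspl1 also 71 bp, and Dnajb1 and Tecr 222 bp.

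Members with TSSs on 1 strand reached about as far upstream as downstream by the median. In these 429 members, measured from the protein-coding TSS nearest to the summit, the domain reached a median of 835 bp upstream (quartiles 601 and 1072 bp) and 832 bp downstream (quartiles 596 and 1062 bp). It reached farther upstream than downstream in 215 of the 429 (50.1%, interval 45.3 to 55.0%). The summit lay upstream of the TSS in 62.5% (interval 57.7 to 67.1%), with a median position of −60 bp, and within 250 bp of it in 73.7%. Rel, for example, reached 771 bp upstream and 740 bp downstream, and Eef1a1 929 and 922 bp, while Egr2 reached 1454 bp upstream and 124 bp downstream.

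**Figure D3:**
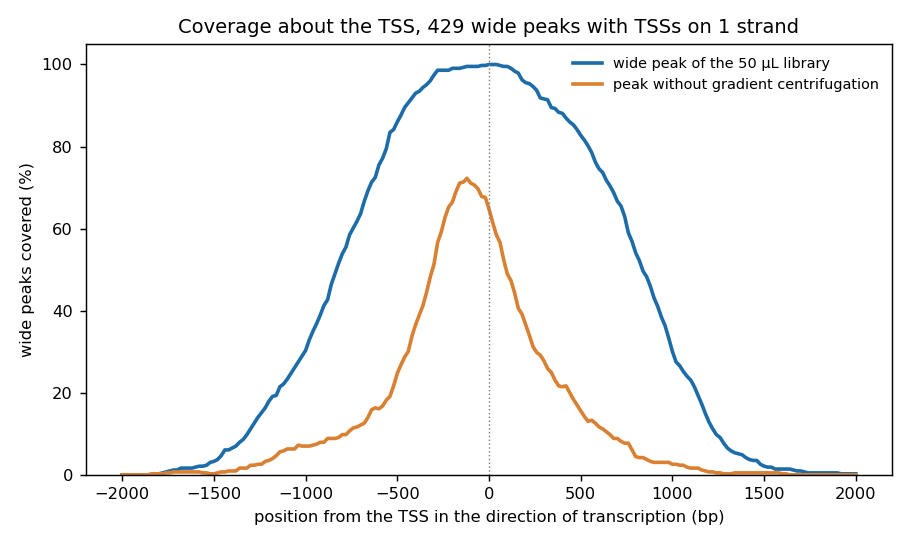
Share of the 429 members with protein-coding TSSs on 1 strand (vertical axis, percent) that were covered at each position from the TSS (horizontal axis, bp, direction of transcription to the right) by the wide peak itself and by peaks without gradient centrifugation. The wide peaks covered 93.0% at −400 bp and 88.1% at +400 bp, 30.3% at −1000 bp and 30.1% at +1000 bp, and 17.9% at −1200 bp and 12.8% at +1200 bp, while the other library's peaks crested at 72.3% at −120 bp.

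The library without gradient centrifugation gave a second reading of the same regions that the rule did not use. It is not an equal reading. For mouse FFPE spleen without the gradient, the study reported weaker signal at TSSs, more duplicates and a smaller share of reads in peaks. It also could not clearly separate cell types there. At least 1 of its peaks overlapped 610 of 644 members by 1 bp or more (94.7%, interval 92.7 to 96.3%), against 26.4% of all autosomal 50 µL peaks. Of the members, 34 held none, 412 held 1, 192 held 2 and 6 held 3 separate peaks, and the median was 1. Thus 198 members held 2 or more (30.7%, interval 27.2 to 34.5%), against 0.88% of all autosomal peaks and 10.6% (interval 9.66 to 11.7%) of those of 1000 to under 1500 bp. Members were longer than the peaks they were set against, and the part of length in this count was not tested. Per kilobase of peak there were 0.745 separate peaks in members, against 0.459 under 500 bp, 0.871 at 500 to under 1000 bp and 0.834 at 1000 to under 1500 bp. Peaks of the other library covered 33.7% of the members' bases, against 11.2%, 30.9% and 38.6% in the same 3 classes. Over the 814 overlaps, the separate peaks had a median width of 408.5 bp.

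The strongest of these peaks in a member had a height in the range of other promoters. Among members within 1 kb of a TSS, its median −log10 q was 14.1 (quartiles 10.1 and 18.6), against 14.8 (quartiles 10.2 and 20.4) for promoter peaks of 1000 to under 1500 bp and 12.8 at 500 to under 1000 bp. Its median fold enrichment was 5.54, 5.91 and 5.56 in these groups. Ddx10 had a fold enrichment of 6.45 in the 50 µL library and 10.9 without gradient centrifugation, and Lnpep had 3.24 and 3.60. The lists were called separately, so such values are set side by side and not compared.

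Where a member held 1 peak of the other library, that peak usually covered the protein-coding TSS nearest to the 50 µL summit. Choosing the TSS by that summit favours a TSS under such a peak, and the part of this choice was not tested. Of 359 protein-coding members with 1 peak of the other library, that peak covered the TSS in 255 (71.0%, interval 66.04 to 75.7%). The 50 µL summit lay under a peak of the other library in 495 of the 610 members with any (81.1%, interval 77.8 to 84.2%). In the 429 members with TSSs on 1 strand, the 535 summits of the other library stood upstream of the TSS in 68.0% (interval 63.9 to 72.0%), at a median of −108 bp. Coverage by that library was 24.7% at 500 bp upstream and 15.6% at 500 bp downstream, where the wide peaks themselves covered 86.0% and 82.8%.

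In members that held exactly 2 peaks of the other library, the peaks left a gap of a median of 330 bp in the 119 members with TSSs on 1 strand (quartiles 210.5 and 593.5 bp) and of 329.5 bp in the 42 with TSSs on both strands. Their summits were a median of 723 and 766.5 bp apart. The TSS lay under 1 of the 2 peaks in 64.7% of the 119 members (interval 55.4 to 73.2%) and in the gap in 25.2% (interval 17.7 to 34.0%). At Eed the stronger peak without gradient centrifugation stood 814 bp upstream (fold enrichment 6.74) and the weaker one 98 bp upstream (3.33). At Hsph1 the stronger stood 504 bp upstream (8.25) and the weaker 60 bp upstream (3.03).

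The 6 members with 3 peaks of the other library were the promoters of Gtf3c6, a subunit of the RNA polymerase III factor TFIIIC, of Hist1h4j, of Stip1, of Armc5 with 9130023H24Rik, of the kinase gene Map3k11 with Pcnx3, and a domain on chromosome 11 with 2 tRNA-Cys genes. At Hist1h4j, which encodes histone H4, these peaks had summits 720 bp upstream and 91 and 521 bp downstream of the TSS, with fold enrichments of 4.64, 4.36 and 5.00. At Gtf3c6 they stood 153, 983 and 1611 bp upstream of its TSS, and U3 RNA has its TSS in the same member. At Stip1 the summits were 1062 and 611 bp upstream and 623 bp downstream, so the TSS itself lay in a gap. The 4 widest members with 2 peaks were Crlf2, Mindy1 with Prune1, Sertad3 and the domain on chromosome 12.

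**Figure D4:**
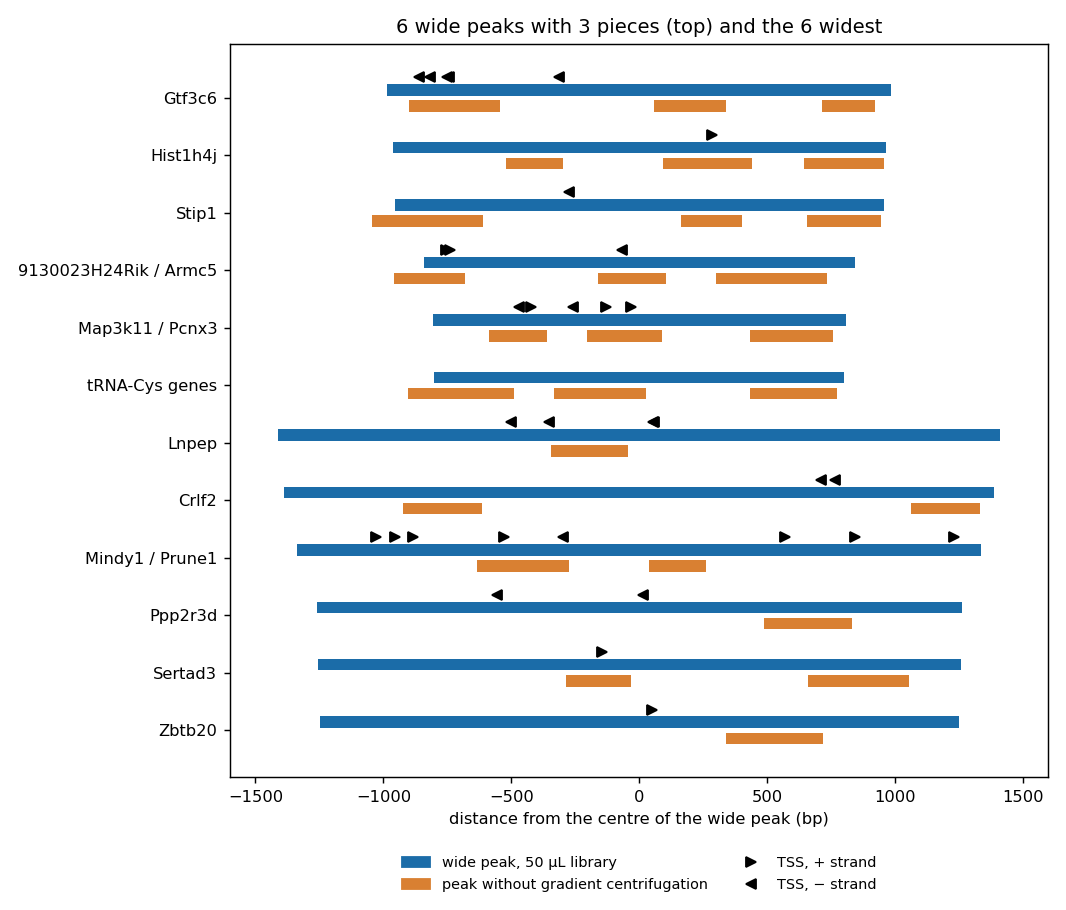
Extent of 12 wide peaks (blue) and of the peaks without gradient centrifugation that overlap them (orange), by distance from the centre of the wide peak (horizontal axis, bp); arrowheads are protein-coding TSSs and point in the direction of transcription. The upper 6 members hold 3 peaks each, and the lower 6, the widest of all, hold 1 or 2.

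The 34 members without any peak of the other library had a median fold enrichment of 3.93 in the 50 µL list and a median −log10 q of 31.6, against 4.42 and 45.9 in the other 610. They were 1503 to 2015 bp wide, 29 of them within 1 kb of a TSS, and their median CpG ratio was 0.681 against 0.706. The widest were the promoters of Kmt5b, a histone H4 methyltransferase, with 2015 bp, of Rasgrp2 with 1953 bp, of Leng9, of Zfp524 with Fiz1, of Setd5 and of Akt2.

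At promoters, members and the next narrower class were close in CpG content. The ratio of observed to expected CpG had a median of 0.704 in members, against 0.232 over all autosomal peaks. Among peaks within 1 kb of a TSS it was 0.717 in members, 0.714 at 1000 to under 1500 bp and 0.664 at 500 to under 1000 bp. The CpG island did lengthen: with islands called as overlapping 200 bp windows of at least 50% GC and a ratio of at least 0.6, the longest island touched had a median of 852 bp at 500 to under 1000 bp, 927 bp at 1000 to under 1500 bp and 1070 bp (quartiles 844.5 and 1396 bp) in members at promoters. A wider interval meets an island more easily, and its part was not tested. Islands covered a median of 64.8% of a member, 37 members had none, and 2 were more than 50% repeats.

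**Figure D5:**
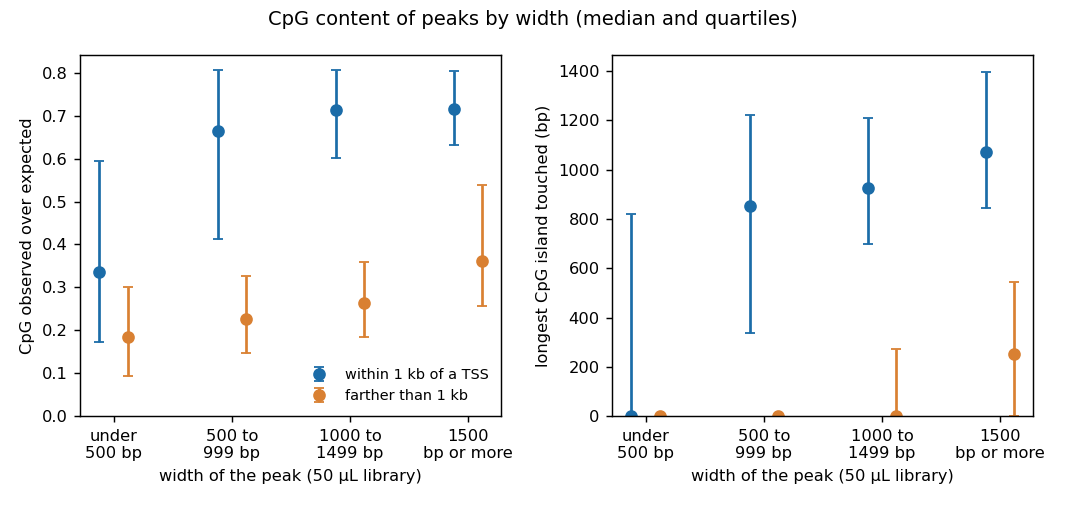
Ratio of observed to expected CpG (left) and length of the longest CpG island touched in bp (right) of autosomal 50 µL peaks by width class (horizontal axes), within 1 kb of a TSS and farther away; points are medians and bars quartiles. At promoters the ratio was 0.714 in peaks of 1000 to under 1500 bp and 0.717 in members, while island length was 927 and 1070 bp.

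Short consensus sequences were searched on both strands in the 200 bp around each summit. Among members within 1 kb of a TSS, the box of SP factors (GGGGCGGGG) lay in 13.4% (interval 10.7 to 16.4%), that of NFY (AGCCAATC) in 4.63%, that of ETS factors (CCGGAAGT) in 5.15%, that of NRF1 (GCGCATGCG) in 2.74% and the E-box CACGTG in 6.86%. Promoter peaks of 1000 to under 1500 bp had 13.0, 3.78, 6.55, 2.54 and 7.26%, and all promoter peaks 8.58, 1.91, 2.57, 1.03 and 5.34%. The sequence of PU.1 (GAGGAAGTG), the factor of myeloid and B cells, lay in 0.343% of members at promoters (interval 0.0416 to 1.23%), against 1.20% at 1000 to under 1500 bp and 1.47% of all promoter peaks. It shares the letters GGAAGT with the ETS sequence. Other sequences of blood cell factors were searched as well. The octamer of OCT factors (ATGCAAAT) lay in 1.72% of members at promoters (interval 0.826 to 3.13%), against 0.769% at 1000 to under 1500 bp and 1.24% of all promoter peaks. The sequence of RUNX factors (TGTGGTTT) lay in 1.89% (interval 0.946 to 3.35%), against 1.07% at 1000 to under 1500 bp and 1.54% of all promoter peaks. That of GATA factors (AGATAAG) lay in 1.54% (interval 0.708 to 2.91%), against 1.20% and 1.79% in the same sets, and that of AP-1 (TGANTCA) in 2.06% (interval 1.07 to 3.57%), against 2.67% and 4.08%. A match is a string of letters and not a bound site.

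Another 61 members lay more than 1 kb from any TSS of GENCODE. The 5 widest were the chromosome 12 domain (chr12:69446031-69448356), one of 2165 bp in Crim1, one of 1953 bp nearest to Gm11809, one of 1917 bp nearest to C030018K13Rik and one of 1906 bp that lay 8639 bp from Scd2. Others lay within Arid5b (2 members), Vwf, Entpd1, Itpr2, Foxn3 and Nfam1, and one of 1513 bp lay 2361 bp from Rela, an NF-κB subunit gene. Peaks of the other library overlapped 56 of the 61 (91.8%, interval 81.9 to 97.3%) and 2 or more overlapped 21 (34.4%, interval 22.7 to 47.7%). Their median CpG ratio was 0.362, against 0.263 for the 803 equally remote peaks of 1000 to under 1500 bp.

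Transfer RNA genes, which RNA polymerase III transcribes from promoters inside the gene, lay in some of these. This was noticed after the values were seen. RefSeq tRNA genes lay in 15 members (2.33%), against 0.16% of all autosomal peaks. Of the 61 remote members 8 held one (13.1%, interval 5.84 to 24.2%), against 2.86% of remote peaks of 1000 to under 1500 bp (interval 1.82 to 4.27%) and 0.145% of all remote autosomal peaks. A longer peak holds a tRNA gene more easily, and that part was not tested. Remote members had a median width of 1616 bp, against 304 bp over all remote autosomal peaks. Members held 23 of the 386 autosomal tRNA genes (5.96%, interval 3.81 to 8.81%). The largest group was on chromosome 3, where 1 member of 1958 bp held genes for tRNA-Arg, 2 tRNA-Tyr and tRNA-Ala. That member lay within 1 kb of a TSS and was not a remote one. One of 1807 bp on chromosome 11 held 3 tRNA-Arg genes, and one of 1821 bp on chromosome 3 (chr3:97680533-97682353, fold enrichment 5.01) held a single tRNA-Gln gene, shown with its flanks as an example of a wide domain about a gene of this size, the gene itself in capitals.
n-TQctg2, chr3:97681395-97681594: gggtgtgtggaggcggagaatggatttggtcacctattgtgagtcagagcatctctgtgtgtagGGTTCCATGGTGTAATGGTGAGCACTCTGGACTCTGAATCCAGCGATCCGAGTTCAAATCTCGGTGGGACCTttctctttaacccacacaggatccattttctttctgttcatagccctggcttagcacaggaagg

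The tRNA-Gln gene took 72 bp of that member, which held 2 peaks without gradient centrifugation. The member on chromosome 11 with 2 tRNA-Cys genes (chr11:97987685-97989287) held 3, with fold enrichments of 4.12, 4.57 and 6.23. Adding RefSeq transcript starts and tRNA genes to GENCODE brought the members with a start inside to 596 of 644 (92.55%, interval 90.2 to 94.5%).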

How the data were processed

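The data were 2 peak lists of scFFPE-ATAC from mouse spleen, 1 library each, and not reads or cells. The authors aligned reads to mm10 with BWA and SAMtools, called peaks with MACS2 over the merged cells of a library and removed blacklisted regions. Tool versions stand in the study's methods and are not repeated here. Per peak they deposited a score (not used), the fold enrichment at the summit (a ratio), −log10 p and −log10 q values, and the summit offset. Here, widths were taken as deposited. TSSs came from GENCODE vM21, tRNA genes from RefSeq, and sequences from the RefSeq copy of GRCm38.p6, the assembly of mm10. No peak ran past a chromosome end. Overlap needed 1 bp. Shares carry exact (Clopper-Pearson) 95% intervals. With 1 library per condition no test between them was run, and how depth bears on width was not tested. Python 3.11.15, pandas 2.3.3 and scipy 1.17.1 were used, and the functions were tested on simulated peaks. Genes were named for the 10 widest, most significant and most divided members, the 5 widest remote ones, 5 on each side of the threshold and listed genes inside members, and any other was chosen after its values were seen. Of the 10 widest, 1 is not reported here. Members, lists and tests were chosen with earlier results of these data known.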

Additional observations from a re-analysis of the deposited data

How the results depend on the processing

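Of 33 alternatives to the 8 results, 12 stayed within the 95% interval or 1.5 times the count, and 21 moved outside. Only the members' own values were recomputed, so the contrasts with other peaks were not checked under these alternatives. A threshold of 1200 bp gave 2244 members and one of 2000 bp gave 40, and joining peaks within 500 bp gave 3001. The TSS share was 83.16% at 1200 bp, 95.0% at 2000 bp, 85.6% with protein-coding TSSs, 83.23% with gene 5′ ends alone and 92.55% with RefSeq starts. The promoter share was 85.7% at 1200 bp, 95.0% at 2000 bp and 93.5% with RefSeq starts, which were added after seeing the data. Summits within 1 kb were 84.2% at 1200 bp. Overlap with the other library was 92.3% at 1200 bp, 97.5% at 2000 bp and 85.9% with its peaks of at least 4-fold. The share with 2 or more was 18.7% at 1200 bp, 50.0% at 2000 bp, 25% with −log10 q above 5, 15.2% at 4-fold and 25.6% with peaks within 200 bp joined. The CpG ratio was 0.777 around the summit. The cause was not tested. Depth is unknown, so an absent peak is not closed DNA. No paired analysis was possible because each condition has 1 library.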

Other observations

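Members lay on every autosome, from 17 on chromosome 18 to 60 on chromosome 11. As a share of a chromosome's 50 µL peaks they ran from 0.413% on chromosome 2 (28 of 6778) to 1.09% on chromosome 7 (58 of 5313). Outside the autosomes, and so outside every comparison above, the X chromosome held 19 of 1806 peaks of the 50 µL library at 1500 bp or more (1.05%, interval 0.635 to 1.64%), the widest of 2109 bp. Another 2 peaks of 1500 bp or more lay on mitochondrial DNA, the wider of 5372 bp, and 4 on unplaced scaffolds.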
